A study of Mus musculus with 180 samples.

Results

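The genes described here are 8 mouse genes of the red blood cell lineage: Klf1, Gata1, Hemgn, Epor, Alas2, Slc4a1, Rhag and Ahsp. They were taken by their gene symbols. Of the 8 genes, 7 had a row in the deposited table of 13820 genes, and Ahsp was not analysed here. RNA was measured in 15 tissues of 12 female mice aged 6 weeks, with 1 library per tissue and mouse (180 libraries), 12 h after the injection. The TNFKO LPS group was 4 mice of the strain B6.129S-Tnftm1Gkl/J, which carry a disrupted Tnf gene in every cell, given 5 mg/kg of lipopolysaccharide (LPS). LPS is a cell wall component of Gram-negative bacteria that triggers systemic inflammation. The LPS group was 4 C57BL/6J mice given the same dose, and the PBS group was 4 C57BL/6J mice given PBS, the buffer without LPS. All mice were perfused through the heart with PBS and EDTA, which washes blood from the vessels. No TNFKO mice given PBS were part of the design, so in comparisons of TNFKO LPS mice the allele, its strain background and the response to LPS cannot be told apart.

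Red blood cells form in the bone marrow, and in mice also in the spleen, from dividing precursors called erythroblasts that fill with hemoglobin and lose their nucleus. GATA1 and KLF1 are the transcription factors that switch on the red cell genes, and signals from the hormone erythropoietin through its receptor, the product of Epor, keep erythroblasts alive. Hemgn encodes hemogen, a nuclear protein of blood precursors. Alas2 encodes the erythroid form of the enzyme that starts heme synthesis. Slc4a1 encodes band 3, the anion exchanger of the red cell membrane, and Rhag encodes the Rh-associated glycoprotein, which carries the Rh proteins in that membrane.

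The promoters of 4 of these genes are shown because they span the results in bone marrow: Klf1 and Hemgn had the largest changes, Epor is the receptor, and Rhag did not follow the others. Each is the RefSeq window from 250 bases before to 50 bases after the gene's start, in GRCm38.p6, written 5′ to 3′ on the strand of the gene. The start is that of RefSeq, and the GENCODE start differs for each of the 4. The GENCODE genes of Hemgn, Klf1 and Rhag reach further upstream, to positions 46413506, 84901928 and 40811126. That of Epor starts further downstream, at position 21963506, past the end of its window. The windows are chr8:84901732-84902031 on the plus strand for Klf1, chr4:46404134-46404433 on the minus strand for Hemgn, chr9:21963527-21963826 on the minus strand for Epor and chr17:40810899-40811198 on the plus strand for Rhag. Capitals mark matches on either strand to GATA with A or T before it and A or G after it, the letters that GATA factors bind, and to CCNCNCCC, a form of the CACC box that KLF factors bind.
Klf1: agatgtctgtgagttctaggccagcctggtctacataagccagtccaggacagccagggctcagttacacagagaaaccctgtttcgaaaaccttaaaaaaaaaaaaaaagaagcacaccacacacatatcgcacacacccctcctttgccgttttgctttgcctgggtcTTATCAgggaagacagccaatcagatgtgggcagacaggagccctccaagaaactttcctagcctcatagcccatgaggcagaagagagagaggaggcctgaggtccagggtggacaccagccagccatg
Hemgn: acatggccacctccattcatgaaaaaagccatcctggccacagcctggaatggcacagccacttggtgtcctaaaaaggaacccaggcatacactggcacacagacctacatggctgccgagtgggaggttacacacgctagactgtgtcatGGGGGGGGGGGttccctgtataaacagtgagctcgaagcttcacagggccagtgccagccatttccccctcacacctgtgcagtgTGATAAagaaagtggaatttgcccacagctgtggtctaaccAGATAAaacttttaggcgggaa
Epor: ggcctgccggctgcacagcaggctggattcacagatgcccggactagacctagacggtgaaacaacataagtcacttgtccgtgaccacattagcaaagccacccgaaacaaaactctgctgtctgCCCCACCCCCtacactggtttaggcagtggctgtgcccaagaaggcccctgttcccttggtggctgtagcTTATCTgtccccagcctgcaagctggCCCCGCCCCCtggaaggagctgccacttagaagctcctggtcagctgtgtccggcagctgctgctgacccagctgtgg
Rhag: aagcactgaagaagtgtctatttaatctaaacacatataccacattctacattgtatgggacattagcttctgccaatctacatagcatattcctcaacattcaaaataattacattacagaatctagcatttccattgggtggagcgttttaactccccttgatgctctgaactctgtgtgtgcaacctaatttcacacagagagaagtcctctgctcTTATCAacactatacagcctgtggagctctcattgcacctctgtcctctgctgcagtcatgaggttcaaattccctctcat

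Of the 6 genes with a promoter in the table, 5 held a GATA match, and 29.8% of all 32851 promoters of this length did. A CCNCNCCC match stood in 4 of the 6 and in 49.5% of all promoters, with overlapping matches counted separately and no base shared between the motifs in these windows. The Klf1 and Rhag windows each held 1 GATA match and 0 CCNCNCCC matches, Epor held 1 and 4, and Hemgn held 2 and 4, the last within a run of G. These are letters in a window and were not measured as binding.

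Total counts were 1456808 to 2561546 per library in bone marrow and 433575 to 912730 in spleen, over a range of 311128 to 2573806 in all tissues. Values are the authors' scaled signal, in which 1 count was worth 0.402 to 0.656 in bone marrow and 0.889 to 1.8 in spleen, so low spleen signals rest on few counts. The library chemistry reads only 3′ ends, and levels are not compared between genes. Among the 15 tissues of PBS mice, the neutrophil precursor genes Mpo, Elane, Ngp, Camp and Ltf were highest in bone marrow. Of the B cell genes Cd22 averaged 231 in spleen and 162 in inguinal lymph node, Cr2 was nearly level at 132 and 130.1, and Fcer2a was lower in spleen, at 127 against 188. Spic, the factor of red pulp macrophages, was highest in spleen. Tnf itself was still counted in TNFKO LPS mice, at a signal of 25.8 to 37.5 in bone marrow, against 17.1 to 33.3 in LPS mice and 3.28 to 7.88 in PBS mice. In spleen it was 37.4 to 55.3 in TNFKO LPS mice, against 13.4 to 28.9 in LPS mice and 7.36 to 18.4 in PBS mice, and in 12 of 15 tissues all TNFKO LPS libraries lay above all LPS libraries. The labels do not say which part of Tnf is disrupted, so a tag at its 3′ end does not check the genotype.

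In PBS mice all 7 genes were lower in spleen than in bone marrow, and spleens differed far more from one another. Klf1 had signals of 1.5, 8.4, 23.6 and 54.7 in the spleens of PBS mice, against 154.9, 160.3, 154.8 and 173.1 in the bone marrow of the same mice. Slc4a1 had 31.1, 28.5, 92.4 and 291.3 in spleen, against 761.5, 886.6, 880.1 and 852.2 in bone marrow. Spleen and marrow did not overlap for either gene. In a joint limma fit of the 24 libraries of both tissues, log2 differences of spleen from bone marrow ranged from -2.43 ± 0.37 (SE) for Epor to -4.34 ± 0.39 for Hemgn, and 7 of 7 genes passed a Benjamini-Hochberg adjusted p of 0.05 as lower, against 23.0% of all genes. Among the PBS spleens, mouse 4 was highest for 7 of 7 genes and for 49 of 52 genes of the red cell lists described below. Its globin genes took 5.08% of counts, against 1.37%, 1.46% and 2.77% in mice 1 to 3. In a whole organ, fewer erythroid cells and less RNA of these genes per cell cannot be told apart, here or below.

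The first comparison asks what LPS did to these genes in wild-type bone marrow. Klf1 and Hemgn fell to 0.44 and 0.43 of their PBS level, Epor, Gata1, Alas2 and Slc4a1 fell by smaller amounts, and Rhag did not pass the test. Thus 6 of 7 genes passed the threshold as lower in limma on log2(signal + 1), where 12.3% of the 12983 genes tested were called lower, and the median log2 change of the 7 was -0.49, against -0.02 over all genes. Libraries of the LPS and PBS groups did not overlap for 5 of the 7, as was so in the lower direction for 12.9% of all genes.

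Klf1 had signals of 86.4, 59.3, 55.3 and 85.7 in LPS marrow, against 154.9, 160.3, 154.8 and 173.1 in PBS marrow. Every LPS mouse lay well below every PBS mouse, a log2 change of -1.18 ± 0.13 (SE; adjusted p = 1.8e-07, limma). Hemgn had 305.1, 197.8, 215.4 and 266.1 in LPS marrow, against 558.0, 556.8, 579.1 and 558.0 in PBS marrow. The PBS mice were nearly alike and the LPS mice all lower, with a log2 change of -1.21 ± 0.11 (adjusted p = 4.9e-09, limma). Gata1 had 77.2, 40.1, 44.4 and 59.5 in LPS marrow, against 78.1, 83.1, 76.3 and 65.9 in PBS marrow. Here mouse 5 of the LPS group stood at the level of the PBS mice and the groups overlapped. The log2 change of Gata1 was -0.49 ± 0.15 (adjusted p = 0.016, limma), and it missed the threshold without mouse 2, 6 or 7 (adjusted p = 0.057, 0.067 and 0.067, limma).

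The receptor gene Epor averaged 28.3 ± 4.77 in LPS marrow and 45.6 ± 3.92 in PBS marrow (SD, n = 4 each), with no overlap between the mice and a log2 change of -0.68 ± 0.13 (adjusted p = 0.00039, limma). Alas2 averaged 243 ± 38.7 in LPS marrow and 317 ± 24.9 in PBS marrow (log2 change -0.40 ± 0.10, adjusted p = 0.0065, limma). Slc4a1 averaged 672 ± 101 in LPS marrow and 845 ± 57.7 in PBS marrow (log2 change -0.34 ± 0.11, adjusted p = 0.021, limma). For Slc4a1 the highest LPS mouse, at 757.8, lay just under the lowest PBS mouse, at 761.5, and Slc4a1 missed the threshold when mouse 2, 3, 4, 6 or 7 was left out (adjusted p = 0.051 to 0.087, limma). Rhag had 233.2, 143.7, 197.9 and 254.2 in LPS marrow, against 160.8, 162.4, 166.5 and 162.3 in PBS marrow. Of the LPS mice 3 lay above all PBS mice and mouse 6 lay below them. The log2 change of Rhag was 0.31 ± 0.13 (adjusted p = 0.085, limma). It passed as higher in edgeR's quasi-likelihood test on counts (adjusted p = 0.048) and in limma without mouse 6 (adjusted p = 0.0012).

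**Figure D1:**
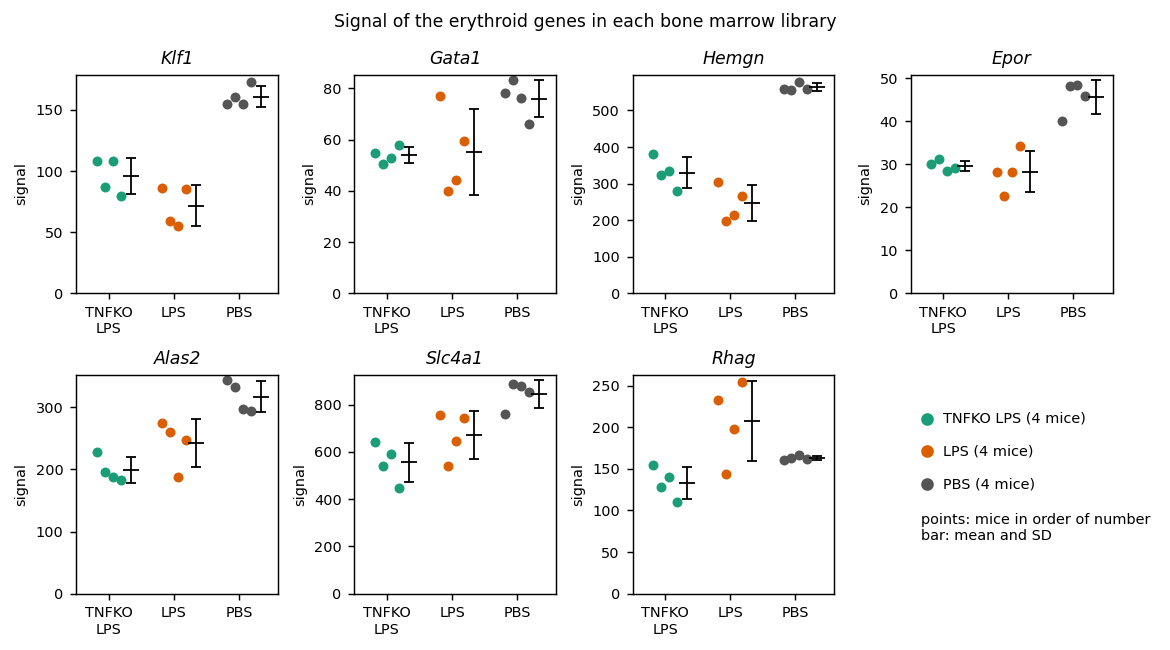
Signal of each erythroid gene (y axis, authors' scaled signal) in the bone marrow of TNFKO LPS, LPS and PBS mice (x axis), with 1 point per mouse and the mean and SD as a bar. Klf1 and Hemgn of all 8 LPS-treated mice lie below all 4 PBS mice, and Rhag of LPS mice reaches 254.2 while PBS mice stay between 160.8 and 166.5.

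Most other genes of red cell formation fell with LPS in marrow as well, where 12.3% of all genes were called lower and 10.6% higher. Of 18 genes of the red cell membrane and its skeleton, 15 fell and 0 rose, with a median log2 change of -0.93. Rhd, the protein partner of RHAG, changed by -1.43 ± 0.12 (SE) and the blood group gene Kel by -1.34 ± 0.14. Of 17 genes of late red cell maturation, 16 fell (median -0.72), led by the red cell pyruvate kinase Pklr (-1.84 ± 0.34), carbonic anhydrase Car2 (-1.58 ± 0.09) and the urea transporter Slc14a1 (-1.36 ± 0.13). The exception was Ube2l6, an enzyme of the ubiquitin-like ISG15 pathway that interferon induces, which rose by 0.57 ± 0.11. Of 12 genes of heme synthesis, 10 fell and 1 rose (median -0.65). The enzyme gene Cpox changed by -1.40 ± 0.12 and the mitochondrial carriers Slc25a38 and Slc25a37 by -1.21 ± 0.15 and -0.99 ± 0.08, while Alas1, the form of the first enzyme used outside erythroid cells, rose by 0.63 ± 0.12.

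Of 15 erythroid transcription regulators, 12 fell and 0 rose, among them the corepressor Cbfa2t3 (-1.01 ± 0.19), Foxo3 (-1.01 ± 0.12) and Tal1 (-0.94 ± 0.14), a partner of GATA1. Those not called were Gata2 (-0.36 ± 0.16), E2f2 (-0.04 ± 0.12) and Gfi1b (0.04 ± 0.20). Of 6 iron uptake genes, 4 fell, including the ferric reductase Steap3 (-1.6 ± 0.21) and the transferrin receptor Tfrc (-0.45 ± 0.10). Of 5 globin genes, 4 fell, led by beta-globin Hbb-bt (-0.70 ± 0.10). The alpha-globin pair Hba-a1 and Hba-a2 are near-identical copies whose reads the counting could split, so their own values are uncertain. Together the globin genes took 14.8% to 17.2% of counts in LPS marrow, against 20.3% to 22.8% in PBS marrow. In erythropoietin and stem cell factor signalling, 1 of 11 genes fell and 3 rose: Kitl, the stem cell factor, changed by -2.05 ± 0.22, and the feedback inhibitor Socs3 and the kinase Pim1 rose by 2.65 ± 0.18 and 0.91 ± 0.10.

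Genes of other cell types were counted in the same libraries, against the same shares of all genes. Of 13 neutrophil genes, 9 fell and 1 rose, with a summed signal of 17940 to 20924 in LPS marrow and 23273 to 25169 in PBS marrow, and Ly6g, a neutrophil surface protein, changed by -3.04 ± 0.24. Of 12 cell division genes 5 fell, led by the ribonucleotide reductase subunit Rrm2 (-1.01 ± 0.07), with sums of 2359 to 3209 in LPS marrow and 3687 to 3973 in PBS marrow. Of 9 genes of the macrophages that nurse erythroblasts, 5 fell and 3 rose: the iron exporter Slc40a1 changed by -2.46 ± 0.12 and the adhesion molecule Vcam1 by -1.77 ± 0.15, while heme oxygenase Hmox1 rose by 1.77 ± 0.14. Their sums were 638.1 to 945.2 in LPS marrow and 677.3 to 775.9 in PBS marrow. Of 12 megakaryocyte genes 3 fell and 2 rose, and of 14 B cell genes 3 fell, against 12.3% of all genes lower and 10.6% higher. Of 10 T cell genes 1 fell and 1 rose, near these shares. Of 5 mast cell and eosinophil genes tested 0 were called (0 at an unadjusted p of 0.05 and 0 in edgeR). No gene of these lists was at 0 in all libraries of a group, and their part in the fall of the erythroid genes was not tested.

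The second comparison sets TNFKO LPS against LPS marrow. It shares the LPS mice with the first, and the values of each are given side by side. Hemgn was higher and Rhag lower in TNFKO LPS marrow, and the other 5 genes were not called. That is 1 of 7 genes higher, against 2.57% of all genes, and 1 of 7 lower, against 3.55%. The median log2 change of the 7 was 0.01, against 0.01 over all genes.

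Hemgn had signals of 382.1, 322.4, 335.8 and 278.8 in TNFKO LPS marrow, against 305.1, 197.8, 215.4 and 266.1 in LPS marrow. Mouse 5 of the LPS group lay above mouse 12 of the TNFKO LPS group, so the groups overlapped. The log2 change of 0.43 ± 0.11 (SE; adjusted p = 0.018, limma) missed the threshold when mouse 7 or 9 was left out (adjusted p = 0.072 and 0.067, limma) and in a fit of these groups alone (adjusted p = 0.061, limma). Klf1 had 108.0, 86.8, 108.5 and 79.9 in TNFKO LPS marrow, against 86.4, 59.3, 55.3 and 85.7 in LPS marrow, with the same log2 change of 0.43 ± 0.13. It stood at the threshold (adjusted p = 0.052, limma), and passed it without mouse 5, 8 or 12 (adjusted p = 0.026, 0.035 and 0.028, limma). Rhag had 154.6, 128.2, 140.3 and 109.9 in TNFKO LPS marrow, against 233.2, 143.7, 197.9 and 254.2 in LPS marrow. Every TNFKO LPS mouse lay below LPS mice 5, 7 and 8, and only TNFKO LPS mouse 9 lay above LPS mouse 6. The log2 change of Rhag was -0.61 ± 0.13 (adjusted p = 0.0048, limma), and the call held in all 13 alternatives (adjusted p at most 0.034). Alas2 and Slc4a1 had the same log2 change of -0.28 (SE 0.10 and 0.11, adjusted p = 0.12 and 0.13, limma), and Epor and Gata1 had 0.08 ± 0.13 and 0.01 ± 0.15 (adjusted p = 0.80 and 0.98, limma).

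In each red cell list most genes were not called in this comparison, in which 2.57% of all genes were called higher and 3.55% lower. The membrane, maturation, heme and regulator lists were still called more often than the 6.12% of all genes called in either direction. Over these lists the calls went both ways. Cpox (0.77 ± 0.12, SE), Car2 (0.64 ± 0.09), Foxo3 (0.58 ± 0.12), the biliverdin reductase Blvrb (0.56 ± 0.11) and Rhd (0.43 ± 0.12) were higher in TNFKO LPS marrow. The skeletal protein gene Epb41 (-0.56 ± 0.10), the cell cycle factor E2f2 (-0.53 ± 0.12), Ube2l6 (-0.52 ± 0.11) and the mitophagy receptor Bnip3l (-0.44 ± 0.09) were lower. Counts were 2 higher and 1 lower of 18 membrane genes, 2 and 4 of 17 maturation genes, 2 and 0 of 12 heme genes, 2 and 1 of 15 regulators, 0 and 0 of 6 iron uptake genes (0 at an unadjusted p of 0.05 and 0 in edgeR). The 5 globin genes had log2 changes of -0.31 to -0.20 and 0 were called in limma, with 4 at an unadjusted p of 0.05 and 3 called in edgeR. In the signalling list Kitl was higher (0.85 ± 0.22) and Socs3 (-0.82 ± 0.18), Jak2 (-0.49 ± 0.12) and Pim1 (-0.41 ± 0.10) were lower. Of 12 megakaryocyte and platelet genes 6 were lower and 0 higher, with sums of 1441 to 1824 in TNFKO LPS marrow and 2320 to 2537 in LPS marrow. Megakaryocytes also use GATA1, and their part in the values of the erythroid genes was not tested.

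Against PBS marrow, TNFKO LPS marrow was lower in 6 of 7 genes, where 11.1% of all genes were called lower, and the 4 mice of each group did not overlap for any of the 7 (12.1% of all genes in this direction). Hemgn averaged 329.8 ± 42.5 in TNFKO LPS marrow and 563 ± 10.8 in PBS marrow (SD, n = 4 each; log2 change -0.78 ± 0.11, SE, adjusted p = 8.3e-06, limma). Klf1 averaged 95.8 ± 14.6 in TNFKO LPS marrow and 161 ± 8.59 in PBS marrow (-0.75 ± 0.13). Alas2, Slc4a1, Epor and Gata1 changed by -0.67 ± 0.10, -0.62 ± 0.11, -0.60 ± 0.13 and -0.48 ± 0.15, of which Gata1 missed the threshold when mouse 1, 2 or 10 was left out (adjusted p = 0.052, 0.068 and 0.056, limma). Rhag changed by -0.30 ± 0.13 and was not called (adjusted p = 0.11, limma), but passed as lower in a fit of these groups alone (adjusted p = 0.026, limma). Its TNFKO LPS mice reached 154.6 at most, just under the lowest PBS mouse at 160.8.

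Most genes of the membrane, maturation, heme and globin lists were lower in TNFKO LPS than in PBS marrow, against 11.1% of all genes called lower and 9.79% higher. Counts were 14 lower and 0 higher of 18 membrane genes (median log2 change -0.88), 15 and 0 of 17 maturation genes (-0.74), 8 and 0 of 15 regulators (-0.44), 4 and 0 of 5 globin genes (-0.84) and 3 and 0 of 6 iron uptake genes (-0.23), against a median of -0.02 over all genes. Bpgm, which makes the red cell metabolite that loosens oxygen from hemoglobin, changed by -1.23 ± 0.11 (SE), and the membrane skeleton gene Dmtn by -1.07 ± 0.18. Of 12 heme genes 10 were lower, led by ferrochelatase, Fech (-0.85 ± 0.10), and Alas1 was higher (0.75 ± 0.12). Of 12 cell division genes 11 were lower, of 12 megakaryocyte genes 10 and of 13 neutrophil genes 9, and their part in the values of the erythroid genes was not tested.

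The genes did not move alike, and a ratio of 2 genes within a library does not depend on the scaling. These ratios were chosen after the values were seen and carry no test. The signal of Rhag divided by that of Klf1 was 1.29 to 1.48 in TNFKO LPS marrow, 2.42 to 3.58 in LPS marrow and 0.938 to 1.08 in PBS marrow, so the 3 groups did not overlap. Hemgn divided by Slc4a1 was 0.567 to 0.625 in TNFKO LPS marrow, 0.333 to 0.403 in LPS marrow and 0.628 to 0.733 in PBS marrow. On this ratio TNFKO LPS mice lay just under the PBS mice and well above the LPS mice. The globin share of counts gave another order, at 13.1% to 15.2% in TNFKO LPS marrow, 14.8% to 17.2% in LPS marrow and 20.3% to 22.8% in PBS marrow.

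**Figure D2:**
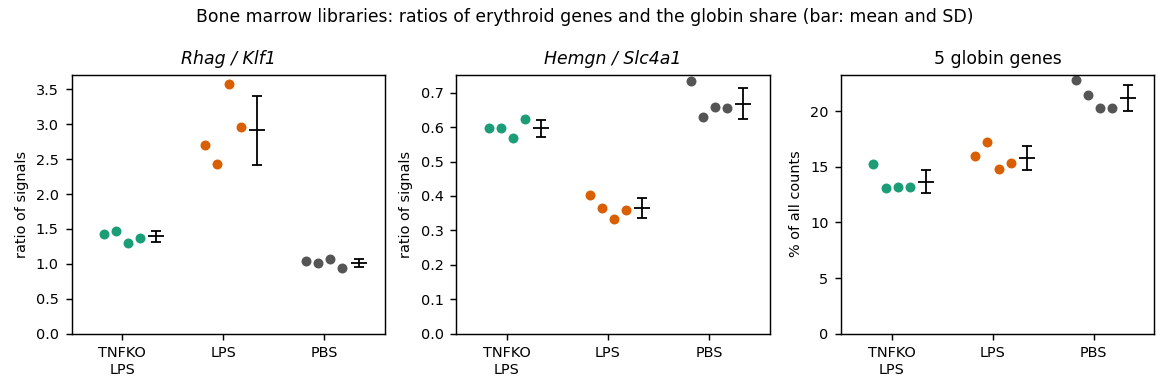
Ratio of the Rhag to the Klf1 signal, ratio of the Hemgn to the Slc4a1 signal and the percent of all counts in 5 globin genes (y axes) in bone marrow libraries of TNFKO LPS, LPS and PBS mice (x axis), with 1 point per mouse and the mean and SD as a bar. Rhag over Klf1 is at least 2.42 in LPS mice and at most 1.48 in all others.

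In spleen the same genes were low, and the spread between PBS mice covered most differences. Slc4a1 had signals of 34.7, 28.1, 15.7 and 37.9 in LPS spleens, against 31.1, 28.5, 92.4 and 291.3 in PBS spleens. The LPS mice lay at the level of PBS mice 1 and 2, below mice 3 and 4. Hemgn had 7.1, 11, 9.4 and 12.6 in LPS spleens, against 7.4, 13.4, 49.4 and 97.8 in PBS spleens, with the same pattern. Both passed as lower in LPS spleens, Slc4a1 by a log2 change of -1.31 ± 0.42 (SE; adjusted p = 0.027, limma) and Hemgn by -1.36 ± 0.45 (adjusted p = 0.036, limma), which is 2 of 7 genes, against 7.75% of all genes called lower.

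Both calls depended on single mice of either group. Without PBS mouse 4, 0 of the 7 were called, with Slc4a1 at -0.64 and Hemgn at -0.75 (adjusted p = 0.23 and 0.27, limma). Without PBS mouse 3 the count was also 0 (adjusted p = 0.091 and 0.16, limma), as it was without LPS mouse 7 (adjusted p = 0.12 and 0.070, limma). Hemgn missed the threshold without LPS mouse 5 as well (adjusted p = 0.11, limma), and without PBS mouse 1 or 2 the count was 3. With a pseudocount of 0.25 both just missed it (adjusted p = 0.051 and 0.061, limma), while edgeR called both (adjusted p = 0.00014 and 0.00011). Klf1 averaged 6.89 ± 3.83 in LPS spleens and 22 ± 23.6 in PBS spleens (SD, n = 4 each) and was not called (-0.86 ± 0.58, adjusted p = 0.37, limma), though edgeR's count test called it (-1.90, adjusted p = 0.0081). The others were Epor at -0.78 ± 0.49, Rhag at -0.35 ± 0.56, Gata1 at -0.31 ± 0.54 and Alas2 at 0.05 ± 0.36, none of them called. For Alas2 the 95% interval was -0.66 to 0.76.

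**Figure D3:**
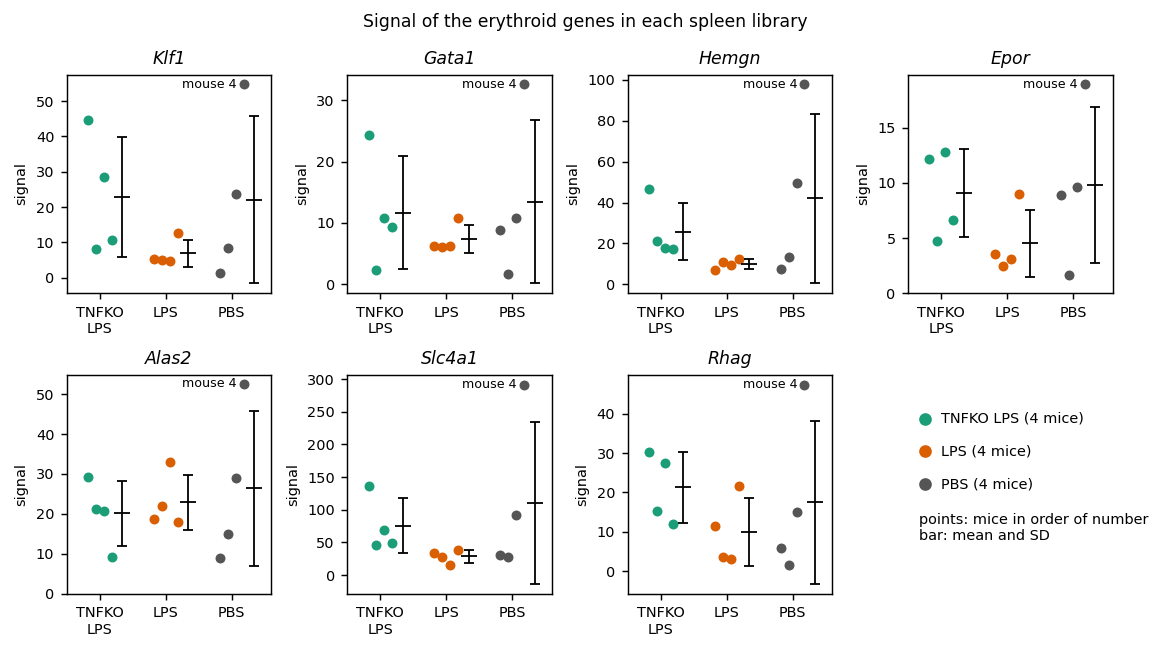
Signal of each erythroid gene (y axis, authors' scaled signal) in the spleens of TNFKO LPS, LPS and PBS mice (x axis), with 1 point per mouse and the mean and SD as a bar. PBS mouse 4 is highest in all 7 panels, and the LPS mice overlap with PBS mice in each.

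Among TNFKO LPS spleens all 7 genes again varied between mice, and mouse 9 was highest for 6 of them. Slc4a1 had 136.6, 45.9, 69.8 and 49.3 in TNFKO LPS spleens, against 34.7, 28.1, 15.7 and 37.9 in LPS spleens. Hemgn had 46.5, 21.2, 17.7 and 17.3 in TNFKO LPS spleens, against 7.1, 11, 9.4 and 12.6 in LPS spleens. For both, every TNFKO LPS mouse lay above every LPS mouse, as was so for 6.04% of all genes. In limma 0 of 7 genes were called, against 4.14% of all genes, although the median log2 change was 1.18, against 0.04 over all genes. At an unadjusted p of 0.05, 4 of the 7 passed: Klf1 (1.41 ± 0.58, SE), Rhag (1.28 ± 0.56), Slc4a1 (1.27 ± 0.42) and Hemgn (1.18 ± 0.45), with adjusted p of 0.18, 0.23, 0.079 and 0.15 in limma. The edgeR count test called 2, Klf1 (adjusted p = 0.025) and Slc4a1 (adjusted p = 0.043), and a limma fit of these groups alone called Slc4a1 and Hemgn (adjusted p = 0.011 and 0.039). Epor (0.90 ± 0.49), Gata1 (0.31 ± 0.54) and Alas2 (-0.24 ± 0.36) were called by none of them.

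TNFKO LPS and PBS spleens overlapped for all 7 genes and 0 were called, with 14.1% of all genes called in this comparison. The count was 0 also at an unadjusted p of 0.05 and in edgeR. Log2 changes ran from -0.19 ± 0.36 (SE) for Alas2 to 0.93 ± 0.56 for Rhag, and the 95% interval of Slc4a1, -0.86 to 0.77, admits a change of either sign. Without mouse 4, Rhag passed as higher in TNFKO LPS spleens (1.65, adjusted p = 0.034, limma).

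The lists were called unevenly in spleen, where 7.75% of all genes were called lower and 8.04% higher for LPS against PBS. In that comparison 2 of 18 membrane genes fell in limma, Epb42 (-1.81 ± 0.58, SE) and the water channel Aqp1 (-0.98 ± 0.24), and 0 rose. In limma this was a share near that of all genes, but 7 of the 18 passed an unadjusted p of 0.05. The edgeR count test called 9 of these 18 membrane genes, and 8 of 12 heme genes against 4 in limma. Of 16 maturation genes tested 6 fell and Ube2l6 rose (0.95 ± 0.28), of 12 heme genes 3 fell and Alas1 rose, and 0 of 5 globin genes were called (0 at an unadjusted p of 0.05 and 0 in edgeR). Of 15 regulators 4 fell, including Lmo2 (-1.21 ± 0.14), which B cells also express, and Gata2, a factor of earlier precursors and mast cells, rose (1.34 ± 0.28). The macrophage list moved most: 8 of 9 genes fell and 0 rose, among them Slc40a1 (-3.50 ± 0.20), Cd163 (-3.01 ± 0.50) and Cd5l (-1.64 ± 0.27), with sums of 396.7 to 839.8 in LPS spleens and 1079 to 1142 in PBS spleens. Of 13 B cell genes tested 8 fell, of 10 T cell genes 8 fell, and of 13 neutrophil genes 6 rose. The part of these shifts in the erythroid values was not tested.

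For TNFKO LPS against LPS spleens, 8 of 12 cell division genes were higher and 0 lower, against 2.56% and 1.59% of all genes. Aurkb, a kinase of chromosome segregation, was higher by 1.42 ± 0.34 (SE) and the mitotic kinase gene Cdk1 by 1.40 ± 0.27. The sums of the list were 652.6 to 897.3 in TNFKO LPS spleens, 364.3 to 429.2 in LPS spleens and 306.5 to 730.8 in PBS spleens. Among red cell genes Tal1 (1.78 ± 0.47), Epb42 (1.98 ± 0.58), Cpox (1.30 ± 0.32) and Blvrb (0.81 ± 0.21) were higher. Called as higher were 4 of 15 regulators, 2 of 12 heme genes, 1 of 18 membrane genes and 1 of 16 maturation genes tested. Of the globin and iron uptake genes 0 were called. In these lists 0 genes were lower, near the 1.59% of all genes. Of 9 macrophage genes 3 were higher, Cd5l (1.59 ± 0.27), Hmox1 (1.10 ± 0.17) and Slc40a1 (0.79 ± 0.20). Of 11 signalling genes 5 were lower, led by Pim1 (-1.25 ± 0.14) and Socs2 (-1.11 ± 0.25). Of 13 B cell genes 6 were higher as well, and dividing B cells and dividing erythroblasts cannot be told apart by the cell division list.

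**Figure D4:**
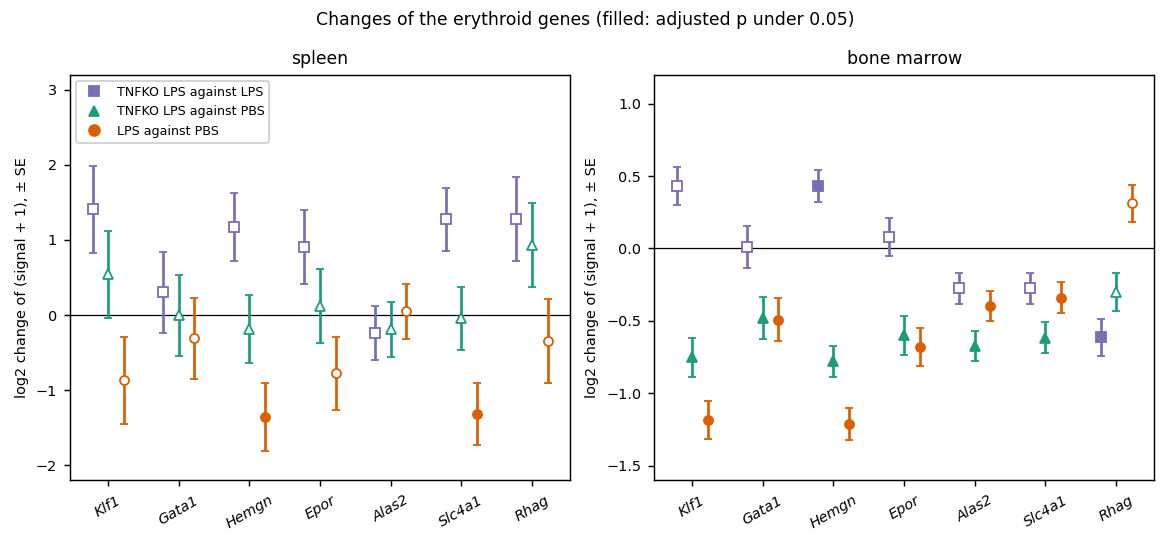
Log2 change of (signal + 1) with its SE (y axis) for each erythroid gene (x axis) in spleen and bone marrow, for TNFKO LPS against LPS, TNFKO LPS against PBS and LPS against PBS. Filled symbols passed an adjusted p of 0.05 in limma; in bone marrow 6 of 7 genes are filled as lower for LPS against PBS, in spleen 2 of 7.

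Whether spleen and bone marrow responded differently was tested in the joint fit of both tissues. For the change by LPS, 0 of 7 genes differed between tissues, with 8.98% of all genes called. The count was 0 at an unadjusted p of 0.05, and edgeR called 1, Slc4a1 (-1.72, adjusted p = 0.024). The intervals were wide: the difference for Klf1, the change in spleen minus that in marrow, was 0.32 with a 95% interval of -1.09 to 1.73, and for Slc4a1 it was -0.97 (-2.06 to 0.11). For the change between TNFKO LPS and LPS, 0 of 7 were called, with 0.985% of all genes called. There 2 passed an unadjusted p of 0.05, Rhag (1.89 ± 0.69, SE, adjusted p = 0.21, limma) and Slc4a1 (1.55 ± 0.55, adjusted p = 0.19, limma), and edgeR called 0. With each mouse as a block, which pairs its spleen and marrow, both passed (adjusted p = 0.048 for Rhag and 0.047 for Slc4a1, limma).

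The 13 other tissues held little signal of these genes. In PBS mice the mean of a gene in any of them was 0.486% to 13.2% of its bone marrow mean. The lowest share was Hemgn in kidney and the highest Epor in kidney. Genes typical of 1 organ were also counted at low signal in others in PBS mice. Sftpc averaged 32731 in lung and 456 in bone marrow, and Umod 2135 in kidney and 107 in inguinal lymph node. Ngp averaged 3025 in bone marrow and 101 in liver. Whether the low signals of the 7 genes came from cells of these tissues was not tested. Bone marrow was first and spleen second for each of the 7 genes, but the SD of spleen, for instance 22 ± 23.6 for Klf1, reached over the means of tissues after it. Next came liver for Klf1 (8.71 ± 2.97; SD, n = 4), Gata1 (6.43 ± 4.45) and Alas2 (8.36 ± 2.44), kidney for Epor (6.04 ± 2.78) and Slc4a1 (26.5 ± 4.46), colon for Hemgn (8.89 ± 2.36) and brown fat for Rhag (6.42 ± 5.59). For most genes the tissue named here was not resolved from those after it. Liver averaged 8.68 ± 3.08 for Hemgn and 5.58 ± 3.62 for Rhag, within the SD of colon and brown fat. The brown fat mean of Rhag includes mouse 1 at 14.4, on 4 counts. Further down the order was not resolved either: Klf1 ran from 4.16 ± 4.15 in brown fat to 1.39 ± 0.96 in small intestine, and neighbours differed by less than their SD. In the 52 PBS libraries of these tissues Gata1 was at 0 in 9, Klf1 in 6 and Epor in 4, where 3 counts are the limit that a count of 0 allows.

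**Figure D5:**
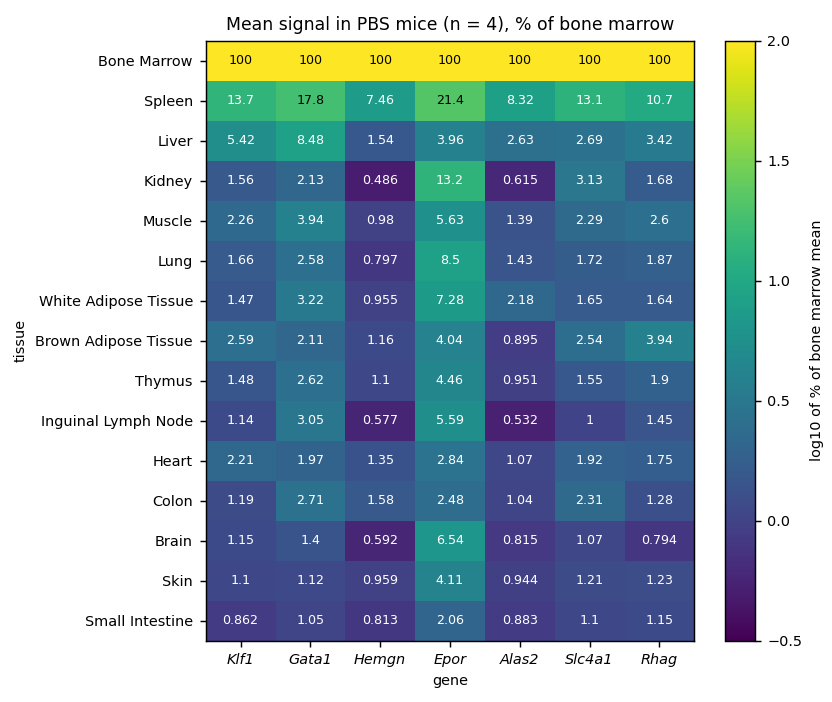
Mean signal of each erythroid gene (x axis) in 15 tissues of PBS mice (y axis), as a percent of its bone marrow mean (n = 4), with colour on a log10 scale. Spleen holds 7.46% to 21.4% of the bone marrow level, and all other tissues stay at or below 13.2%.

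Across the 13 tissues, LPS against PBS gave 1 higher and 3 lower calls in 91 tests of these genes, against 9.49% higher and 10.4% lower over all genes and tissues. The lower calls with the largest support were in kidney. Kidney Epor had signals of 0.0, 1.9, 0.0 and 0.9 in LPS mice, against 8.4, 6.0, 7.6 and 2.1 in PBS mice. Every LPS mouse lay below every PBS mouse, though LPS mouse 6 and PBS mouse 4 had 3 counts each and were set apart only by the scaling. The LPS mice had 0 to 3 counts and the PBS mice 3 to 12, with a log2 change of -2.08 ± 0.40 (SE; adjusted p = 0.00017, limma). Kidney Slc4a1, which in this organ is made by acid-secreting intercalated cells of the collecting duct, had 11.3, 9.0, 16.9 and 11.1 in LPS mice, against 22.3, 30.7, 22.9 and 29.9 in PBS mice. The groups did not overlap, and the log2 change was -1.09 ± 0.21 (adjusted p = 0.00019, limma). Both kidney calls held in all 13 alternatives, in an organ where 21.9% of all genes were called lower. Lung Epor (lower, as were 13.9% of lung genes; -1.50 ± 0.48, adjusted p = 0.022, limma) and Klf1 in small intestine (higher, as were 9.92% of genes there; 1.02 ± 0.35, adjusted p = 0.041, limma) rested on 10 counts or fewer per library and were lost in edgeR (adjusted p = 0.063 and 0.093).

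TNFKO LPS against LPS gave 2 higher and 0 lower calls in 91 tests, against 3.34% and 2.28% of all genes. Both were again in kidney: Epor had 2.8, 2.1, 3.8 and 2.4 in TNFKO LPS mice, against 0.0, 1.9, 0.0 and 0.9 in LPS mice (1.28 ± 0.40, SE, adjusted p = 0.025, limma), and Slc4a1 had 16.9, 23.9, 13.3 and 21.4, against 11.3, 9.0, 16.9 and 11.1 in LPS mice (0.60 ± 0.21, adjusted p = 0.047, limma). For Epor the TNFKO LPS mice were all above the LPS mice, but on 4 to 8 counts against 0 to 3. The nearest, mouse 10 of the TNFKO LPS group and mouse 6 of the LPS group, had 4 and 3 counts. For Slc4a1 the 2 groups overlapped, and 13.2% of all kidney genes were called higher. Both missed the threshold in edgeR (adjusted p = 0.084 and 0.082), Epor also when mouse 5, 7, 9 or 11 was left out and Slc4a1 when mouse 5, 6, 8, 9, 10 or 12 was. TNFKO LPS against PBS gave 0 calls in 91 tests in limma and 0 in edgeR, with 3 at an unadjusted p of 0.05 and 12.1% of all genes called.

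Over the means of the 45 groups of tissue and condition, the 10 genes whose log2 pattern was most like the average of the 7 had Pearson r of 0.981 to 0.960, and among them were Hbb-bt, Hba-a2, Ppbp, Kel, Trim10, Hbb-bs, Gfi1b, Tspo2 and Slfn14. The points share mice and libraries, and bone marrow stands apart from all other tissues, so r describes mainly that contrast. Of the 10, 8 were in the lists above, 7 as globin, membrane or regulator genes, and Ppbp, a platelet chemokine, as a megakaryocyte gene. Gfi1b, a repressor needed for red cells and platelets, averaged 21.3 in TNFKO LPS marrow, 31.6 in LPS marrow and 30.0 in PBS marrow, and was among those that LPS did not lower.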

How the data were processed

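Per the labels' protocols, polyA RNA of whole tissue was reverse transcribed from the 3′ end with a sample barcode and a 10 bp molecular identifier. Whether identifiers were collapsed is not stated there, so a count may be a read or a molecule, and limits set from counts cover counting error only. The submitters' processing notes name FastQC, MultiQC, edgeR and the mm10 build and no aligner. The authors call the deposited values CPM, but each library summed to 703690 to 1603067 and not to a fixed total, so the unit is taken here as a signal on the authors' own scale. Within each library the values were multiples of a single step (100% of them, to within 0.1 of a count), and division by the step returned counts.

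Genes reaching a signal of 1 in 4 or more of a tissue's 12 libraries were tested on log2(signal + 1) by limma-trend (limma 3.58.1, R 4.3.3), with the 3 groups in a single fit and Benjamini-Hochberg adjustment at 0.05 within each comparison. Changes are on this scale, which understates those of low genes. A joint fit of the spleen and bone marrow libraries gave the differences between these tissues. Mouse numbers come from the labels and pair the tissues because they are the same animals. Deviations from the group means correlated by -0.008 to 0.098 between the tissues of a mouse. Replicate pairs in these tissues (36) differed by more than counting error, with a chi-squared of at least 1.28 per degree of freedom.

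The genes and lists were chosen with earlier results of these data known. Named list genes are those with the largest called changes in each direction, any called against its list, and those a sentence on a list needs. Some genes that this rule takes are not reported here. Alternatives were a pseudocount of 0.25, no filter, median-of-ratios rescaling, edgeR 4.0.16 quasi-likelihood on the counts, a fit of the compared groups alone, mouse as a block, and leaving out each mouse. Over all genes edgeR called 2970 in bone marrow and 2151 in spleen for LPS against PBS (limma 2983 and 2119), 934 and 637 for TNFKO LPS against LPS (limma 795 and 556), and 2697 and 2107 for TNFKO LPS against PBS (limma 2711 and 1894). The fits were tested on simulated data with 200 changed genes. These data had the same dispersion for every gene, so they do not cover a spread such as that between PBS spleens. Promoters are from the RefSeq table of GRCm38.p6.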

Additional observations from a re-analysis of the deposited data

Results flagged for a closer look

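Of 42 groups of 4 libraries (7 genes, both tissues, 3 conditions), 5 held a mouse whose gap to the nearest other mouse exceeded Dixon's 95% critical share of the group's range, where chance flags about 1 in 20 groups. In LPS spleens mouse 8 was flagged for Klf1 (signal 12.62), Gata1 (10.82) and Epor (9.016), each on 5 to 7 counts in the library with the lowest total, 433575. In counts mouse 8 was close to mouse 5, with 7 against 6 for Klf1, 6 against 7 for Gata1 and 5 against 4 for Epor. The gap in signal thus rests largely on the scaling. In TNFKO LPS spleens mouse 9 stood above the rest for Hemgn (46.54). In PBS marrow mouse 3 was highest for Hemgn (579.1), in a group with an SD of 10.8.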

How the results depend on the processing

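In bone marrow the falls of Klf1, Hemgn, Epor and Alas2 with LPS, those of these genes and Slc4a1 in TNFKO LPS against PBS marrow, and the lower Rhag in TNFKO LPS against LPS marrow held in all 13 alternatives run for each. For LPS against PBS marrow, edgeR called 1 gene higher, and leaving out each mouse gave 4 to 6 lower, 0 to 1 higher and 2548 to 2980 calls over all genes. For TNFKO LPS against LPS marrow, the groups alone gave 0 higher calls, and leaving out each mouse gave 0 to 2 higher, 1 to 2 lower and 395 to 1277 over all genes (795 with all mice). For TNFKO LPS against PBS marrow it gave 5 to 6 lower calls.

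In spleen, the 2 lower calls for LPS against PBS were 0 with a pseudocount of 0.25 and 1 with the groups alone, and 0 to 3 without a mouse. The 0 calls for TNFKO LPS against LPS were 2 higher in edgeR and with the groups alone, with 330 to 719 calls over all genes without a mouse (556 with all), and for TNFKO LPS against PBS 0 to 1 higher. In the other 13 tissues, the 1 higher call with LPS was 0 with a pseudocount of 0.25, in edgeR and with the groups alone, and 0 to 1 without a mouse, with 2 to 3 lower. The 2 higher calls for TNFKO LPS against LPS were 1 with no filter, 1 after rescaling, 0 in edgeR and 1 with the groups alone, and 0 to 1 without a mouse, with 0 to 1 lower. For TNFKO LPS against PBS, 1 was lower with no filter and 0 to 1 without a mouse. For the tissue difference in the change by LPS, edgeR called 1 lower. With mouse as a block, pairing both tissues, the tissue difference for TNFKO LPS against LPS gave 2 higher calls and 202 over all genes, against 134 without it and 32 to 206 without a mouse. The block changed no other call of the 7 genes.

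Values that changed sign were not called. In edgeR these were Alas2 (-0.32) for LPS against PBS spleen, Epor (-0.18) and Klf1 (-0.036) for TNFKO LPS against PBS spleen, Gata1 (-0.049) for TNFKO LPS against LPS marrow, and Alas2 (-0.0062), Gata1 (-0.68) and Klf1 (-0.82) for the tissue difference in the change by LPS. With a pseudocount of 0.25 it was Gata1 (0.023) for TNFKO LPS against PBS spleen. Without a mouse, LPS against PBS spleen ran from -1.02 to 0.37 for Rhag, -0.35 to 0.47 for Alas2 and -0.95 to 0.27 for Gata1. TNFKO LPS against LPS spleen ran from -0.45 to 0.071 for Alas2 and -0.14 to 0.84 for Gata1. TNFKO LPS against PBS spleen ran from -0.44 to 0.52 for Epor, -0.47 to 0.64 for Slc4a1, -0.59 to 0.23 for Alas2, -0.76 to 0.42 for Hemgn, -0.64 to 0.58 for Gata1 and -0.26 to 1.23 for Klf1. TNFKO LPS against LPS marrow ran from -0.020 to 0.17 for Epor and -0.12 to 0.18 for Gata1. The tissue difference in the change by LPS ran from -0.69 to 0.30 for Epor, -1.33 to 0.058 for Rhag, -0.72 to 0.46 for Hemgn, -0.50 to 0.82 for Gata1 and -0.47 to 0.97 for Klf1, and that for TNFKO LPS against LPS from -0.11 to 0.34 for Alas2 and -0.14 to 0.79 for Gata1. The cause of these shifts was not tested.

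In spleen 1 count was worth 0.889 to 1.8 signal units, so low signals there rest on few counts, and a missing call there does not show that a gene did not change.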
